A study of Homo sapiens with 12 samples.

Results

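The transcripts described are those of interferon-stimulated genes, a list of 51 named genes that respond to interferons, in Z138 cells treated with AU-15330 or with DMSO. Members were taken by gene symbol from the deposited expression table, and where a symbol had more than 1 entry the entry with the highest mean was used. Of the 51, 49 had an entry among the 20318 of the table, and CMPK2 and PLSCR1 are not analysed here. A member was called above background when its mean reached 60 normalised counts, about 1 CPM, in each of the 4 groups, and 29 members did. A further 7 reached this level in some groups only, and 13 were under it in all 4 groups.

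Z138 is a human mantle cell lymphoma line, described in the labels as a lymphoblast line with wild-type genotype. AU-15330 is a PROTAC, a molecule that brings a target protein to a ubiquitin ligase for destruction. Its targets are SMARCA2 and SMARCA4, the ATPases of the SWI/SNF chromatin remodelling complexes, and PBRM1, another subunit. The groups were AU-15330 at 0.5 µM for 8 h (3 libraries), DMSO for 8 h (2 libraries), AU-15330 at 0.5 µM for 24 h (3 libraries) and DMSO for 24 h (3 libraries). All groups were 1 unedited line in the same medium with fetal bovine serum, and no interferon treatment is named in the labels. The labels list 3 DMSO samples at 8 h, but 2 columns of the table shared a name and all their values and were counted as 1 library, called replicate 2 here. The labels do not say whether replicates were separate cultures, so the p-values speak of the spread among these libraries alone, and that spread may be technical. Each time was its own batch in the labels, so time and batch cannot be told apart, whereas AU-15330 and DMSO were always compared within a batch.

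Estimated totals were 50741267 to 67565452 counts per library. The 2 mantle cell lymphoma markers CCND1 and SOX11 and the 4 B cell markers CD79A, CD79B, MS4A1 and PAX5 were above background in every group. The 3 myeloid markers in the table, CD14, LYZ and ITGAM, stayed below background in every group, with summed levels of 6.79 to 44.0 normalised counts in AU-15330 cells and 15.4 to 35.7 in DMSO cells at 8 h, and of 15.4 to 19.8 in AU-15330 cells and 38.2 to 75.8 in DMSO cells at 24 h. In RNA from bulk cells, fewer cells that express a gene and less RNA of it per cell cannot be told apart.

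Interferon-stimulated genes encode proteins that sense viral nucleic acid, block steps of viral replication or tune the interferon response itself. Type I interferon binds the receptor formed by IFNAR1 and IFNAR2, the kinases JAK1 and TYK2 phosphorylate STAT proteins, and STAT2 joins IRF9 in the complex ISGF3. ISGF3 binds the interferon-stimulated response element (ISRE), whose core is a pair of GAAA repeats a short distance apart, while the gamma-activated sequence (GAS) serves the response to interferon gamma. Many of these genes also keep a basal level in cells that have met no added interferon.

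The promoters of the 3 falling and the 3 rising members with the largest mean change over both times and an entry in the RefSeq promoter table (GRCh38.p14) show how the element differs among members. Falling members are those called lower at both times, and rising members those called higher at both times. OAS3 is added as the neighbour of OAS1. Each sequence runs from 250 bases before the gene's first listed start to 50 after it, 5′ to 3′ on the gene's strand. Capitals mark matches on either strand to the ISRE core, searched as GAAA and GAAA separated by any 2 bases, or to the ETS-IRF composite, searched as GGAA and GAAA separated by any 2 bases.
MX1, falling, chr21:41420308-41420607, plus strand: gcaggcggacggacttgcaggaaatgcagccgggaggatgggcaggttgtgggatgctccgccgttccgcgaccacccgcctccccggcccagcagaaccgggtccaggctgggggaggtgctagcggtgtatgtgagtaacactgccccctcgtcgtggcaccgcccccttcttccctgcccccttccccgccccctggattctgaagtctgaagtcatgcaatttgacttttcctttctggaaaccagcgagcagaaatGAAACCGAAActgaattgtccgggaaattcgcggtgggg
IFIT5, falling, chr10:89414318-89414617, plus strand: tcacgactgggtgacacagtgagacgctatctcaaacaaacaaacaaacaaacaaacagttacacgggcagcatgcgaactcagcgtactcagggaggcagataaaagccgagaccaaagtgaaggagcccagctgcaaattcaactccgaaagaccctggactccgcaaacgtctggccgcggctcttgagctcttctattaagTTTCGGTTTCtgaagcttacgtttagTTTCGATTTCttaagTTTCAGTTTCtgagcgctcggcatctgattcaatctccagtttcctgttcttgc
IFI16, falling, chr1:159008741-159009040, plus strand: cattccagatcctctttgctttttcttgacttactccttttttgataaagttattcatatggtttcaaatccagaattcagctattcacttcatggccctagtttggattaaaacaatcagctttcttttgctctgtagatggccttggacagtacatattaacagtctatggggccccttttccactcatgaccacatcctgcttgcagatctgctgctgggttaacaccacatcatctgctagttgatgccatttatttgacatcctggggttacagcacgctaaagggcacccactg
OAS1, rising, chr12:112906712-112907011, plus strand: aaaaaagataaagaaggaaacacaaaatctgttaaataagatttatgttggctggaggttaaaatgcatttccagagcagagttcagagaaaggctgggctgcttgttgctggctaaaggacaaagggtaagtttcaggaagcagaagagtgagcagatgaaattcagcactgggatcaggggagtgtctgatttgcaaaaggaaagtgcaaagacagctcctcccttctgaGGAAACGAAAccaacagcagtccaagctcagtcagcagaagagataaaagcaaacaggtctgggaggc
RNF213, rising, chr17:80260602-80260901, plus strand: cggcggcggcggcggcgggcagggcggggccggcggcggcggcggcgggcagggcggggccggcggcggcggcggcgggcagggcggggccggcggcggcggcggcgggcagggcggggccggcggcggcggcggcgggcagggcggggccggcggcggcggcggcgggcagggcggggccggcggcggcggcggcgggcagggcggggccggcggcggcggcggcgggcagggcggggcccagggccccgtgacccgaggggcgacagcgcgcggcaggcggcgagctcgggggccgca
BST2, rising, chr19:17405581-17405880, minus strand: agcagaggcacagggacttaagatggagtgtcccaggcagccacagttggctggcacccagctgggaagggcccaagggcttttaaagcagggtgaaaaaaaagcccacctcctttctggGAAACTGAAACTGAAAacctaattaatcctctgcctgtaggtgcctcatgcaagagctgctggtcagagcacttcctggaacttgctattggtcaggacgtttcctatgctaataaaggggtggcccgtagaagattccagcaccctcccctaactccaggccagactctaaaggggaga
OAS3, below background, chr12:112938224-112938523, plus strand: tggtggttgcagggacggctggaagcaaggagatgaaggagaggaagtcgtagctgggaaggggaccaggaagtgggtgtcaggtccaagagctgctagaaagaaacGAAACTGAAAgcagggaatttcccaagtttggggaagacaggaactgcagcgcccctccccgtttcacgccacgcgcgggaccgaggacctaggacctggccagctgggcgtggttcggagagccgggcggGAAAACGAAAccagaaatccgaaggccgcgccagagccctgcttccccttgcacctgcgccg

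IFIT5 held 3 ISRE cores in this window, MX1 held 1, and IFI16 and RNF213 held neither motif. OAS1 carried 1 composite match and no match to the ISRE core as searched, whereas BST2 carried 2 overlapping cores and OAS3 carried 2 separate ones. The marked stretch of OAS1 does hold a pair of GAAA repeats, but 1 base apart and not the 2 searched. Absence of a match is thus not absence of a response element. Of the 49 members with a row, 39 had an entry in the promoter table, and 27 of these held an ISRE core in at least 1 of their listed promoters. Over all 27305 genes of the table, 4.38% held one in windows of the same length of 300 bases. The core was found in 7 of 11 falling members with an entry (MX1, IFIT3, IFIT5, IFIH1, ISG15, DTX3L and SAMD9), in 1 of 3 rising members (BST2) and in 9 of 10 members below background. The composite was found in 2 falling members, IFIT3 and DTX3L, and in OAS1 among the rising ones, against 3.47% of all genes. GAS, searched as TTC and GAA separated by any 3 bases, was found in MX1 among the falling members and in OAS1 and BST2 among the rising ones, against 9.38% of all genes. In 5 members an ISRE core overlapped a composite match, and in 7 a GAS match overlapped another motif. A match describes the letters of this window and is no evidence that a factor binds there.

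At 8 h, 15 of the 29 members above background fell with AU-15330 (51.7%), 4 rose (13.8%) and 10 did not pass the test. Among all 12722 entries tested, 21.4% were lower and 22.9% were higher. The median change of the members was -0.19, against 0.02 for all entries tested. Changes are differences in log2(normalised count + 60), AU-15330 minus DMSO, which understate the fold of low genes. Adjusted p-values come from limma on the deposited log2 scale with Benjamini-Hochberg adjustment over all entries tested, and the threshold was 0.05.

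At 24 h, 17 of the 29 fell (58.6%), 5 rose (17.2%) and 7 did not pass, with 26.2% of all entries lower and 24.7% higher. The median change of the members was -0.39, against 0.01 for all entries. The 2 comparisons share no libraries in their means, but their tests share 1 estimate of the spread per gene from all 11 libraries. At both times 14 members fell, while 4 rose at both. Of all entries, 16.0% were lower and 14.0% higher at both times. Another 3 members fell at 24 h alone (PARP14, SAMHD1 and SAMD9L), ISG20 fell at 8 h alone, USP18 rose at 24 h alone, and 6 passed at neither time (EIF2AK2, TRIM21, TRIM5, OASL, SP100 and PARP9). Markers of B cells were lower in the same libraries. Of the 4, 3 fell at 8 h and all 4 fell at 24 h, and their summed level was 29560 to 32480 normalised counts in AU-15330 cells and 52970 to 55400 in DMSO cells at 8 h, and 23510 to 25360 in AU-15330 cells and 72520 to 73050 in DMSO cells at 24 h. Of the T cell markers in the table, CD3D was below background and CD3E above it in some groups only, while CD3G fell, with changes of -1.17 ± 0.13 (SE, adjusted p = 6.47e-06, limma) at 8 h and -2.33 ± 0.11 (SE, adjusted p = 1.76e-08, limma) at 24 h. The summed level of these 3 was 251 to 338 normalised counts in AU-15330 cells and 783 to 797 in DMSO cells at 8 h, and 79.3 to 111 in AU-15330 cells and 763.5 to 812 in DMSO cells at 24 h. SOX11 rose at 24 h, by 1.15 ± 0.078 (SE, adjusted p = 2.11e-07, limma), and did not pass at 8 h, whereas CCND1 passed at neither time. Of the 2 plasmacytoid dendritic cell markers in the table, CLEC4C was below background, and IL3RA was above it in AU-15330 cells at 24 h only. IL3RA averaged 56.0 ± 10.5 normalised counts in AU-15330 cells and 36.4 ± 4.57 in DMSO cells (SD, n = 3 and 2) at 8 h. At 24 h it averaged 184 ± 33.5 in AU-15330 cells and 53.0 ± 12.0 in DMSO cells (SD, n = 3 each). The 2 epithelial markers in the table summed to 50.3 to 58.6 normalised counts in AU-15330 cells and 65.1 to 106.6 in DMSO cells at 8 h, and to 56.3 to 64.2 in AU-15330 cells and 81.6 to 122.6 in DMSO cells at 24 h. The part of these shifts in the changes of the interferon-stimulated genes was not tested. The plot of changes by role shows that the direction was mixed within several roles.

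**Figure D1:**
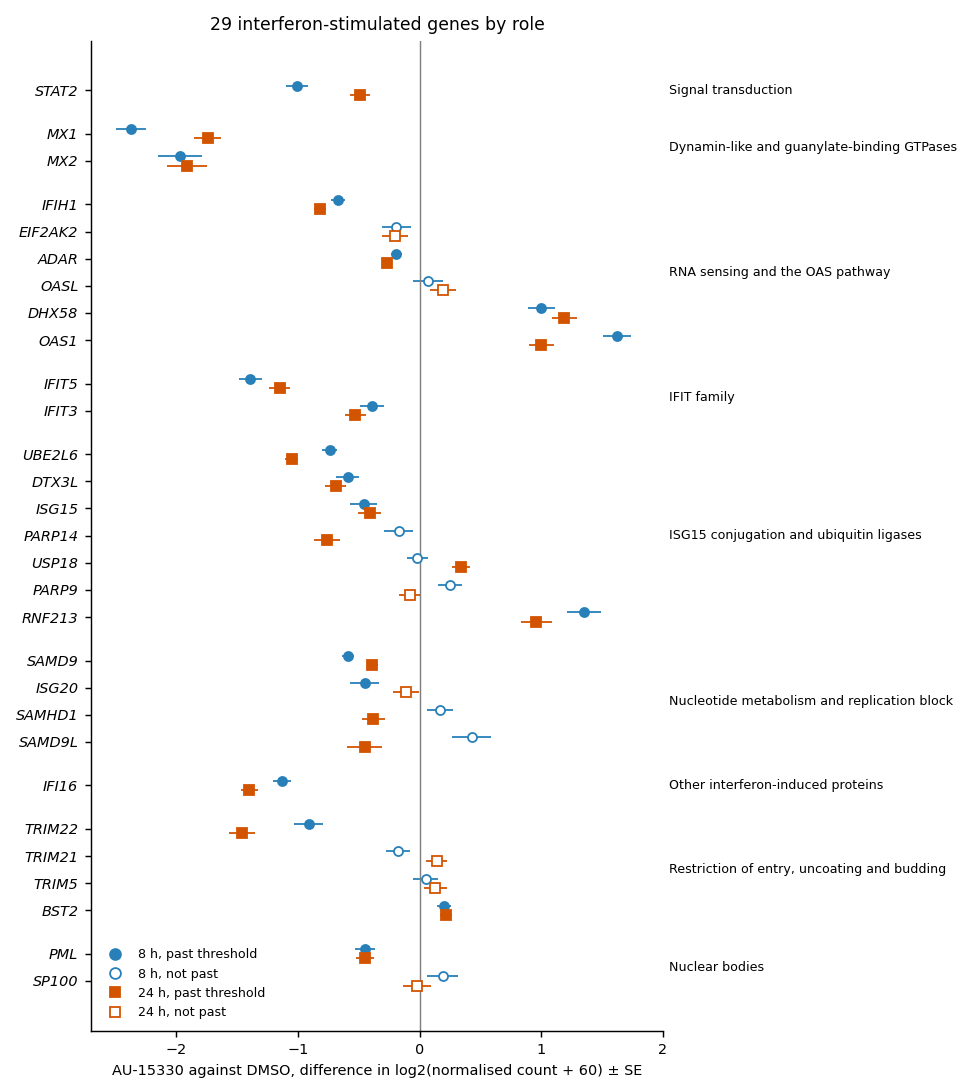
Change with AU-15330 against DMSO for the 29 members above background, grouped by role, as the difference in log2(normalised count + 60) with its standard error, at 8 h (circles) and 24 h (squares). Filled symbols passed an adjusted p of 0.05; MX1 and MX2 lie farthest to the left and OAS1, RNF213 and DHX58 farthest to the right.

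STAT2, the partner of IRF9 in ISGF3, was the only member grouped under signal transduction. Its gene lies at chr12:56341597-56360155 on the minus strand. STAT2 had 1421, 1605 and 1542 normalised counts in AU-15330 cells at 8 h, against 3135 and 3098 in DMSO cells. At 24 h STAT2 had 2173, 1825 and 2106 normalised counts in AU-15330 cells, against 3043, 2994 and 2584 in DMSO cells. The AU-15330 libraries lay below all DMSO libraries at both times. The change was -1.01 ± 0.089 (SE, adjusted p = 5.43e-06, limma) at 8 h and -0.49 ± 0.080 (SE, adjusted p = 0.000307, limma) at 24 h.

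MX1 and MX2, the dynamin-like GTPases that trap viral nucleocapsids and capsids, showed the 2 largest falls of the 29 at both times. MX1 had 433, 323.5 and 331 normalised counts in AU-15330 cells at 8 h, against 2095 and 2130 in DMSO cells. At 24 h MX1 had 711, 765 and 889 normalised counts in AU-15330 cells, against 2993, 2514 and 2780 in DMSO cells. The groups were far apart at both times, and the mean in AU-15330 cells was 0.172 times that in DMSO cells at 8 h and 0.285 times at 24 h. The MX1 change was -2.37 ± 0.12 (SE, adjusted p = 7.54e-08, limma) at 8 h and -1.74 ± 0.11 (SE, adjusted p = 4.32e-08, limma) at 24 h. MX2 had 92.1, 115 and 65.9 normalised counts in AU-15330 cells at 8 h, against 546 and 506 in DMSO cells. At 24 h MX2 had 84.3, 169 and 107.5 normalised counts in AU-15330 cells, against 616, 591 and 604 in DMSO cells. Every treated library was under every DMSO library, and the treated libraries of MX2 varied more among themselves at 24 h than the DMSO ones. The MX2 change was -1.97 ± 0.18 (SE, adjusted p = 2.83e-06, limma) at 8 h and -1.91 ± 0.16 (SE, adjusted p = 5.59e-07, limma) at 24 h. GBP1, a guanylate-binding GTPase induced mainly by interferon gamma, was listed at 0 in all AU-15330 libraries and at 0.332 to 4.32 normalised counts in DMSO libraries, below background throughout.

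**Figure D2:**
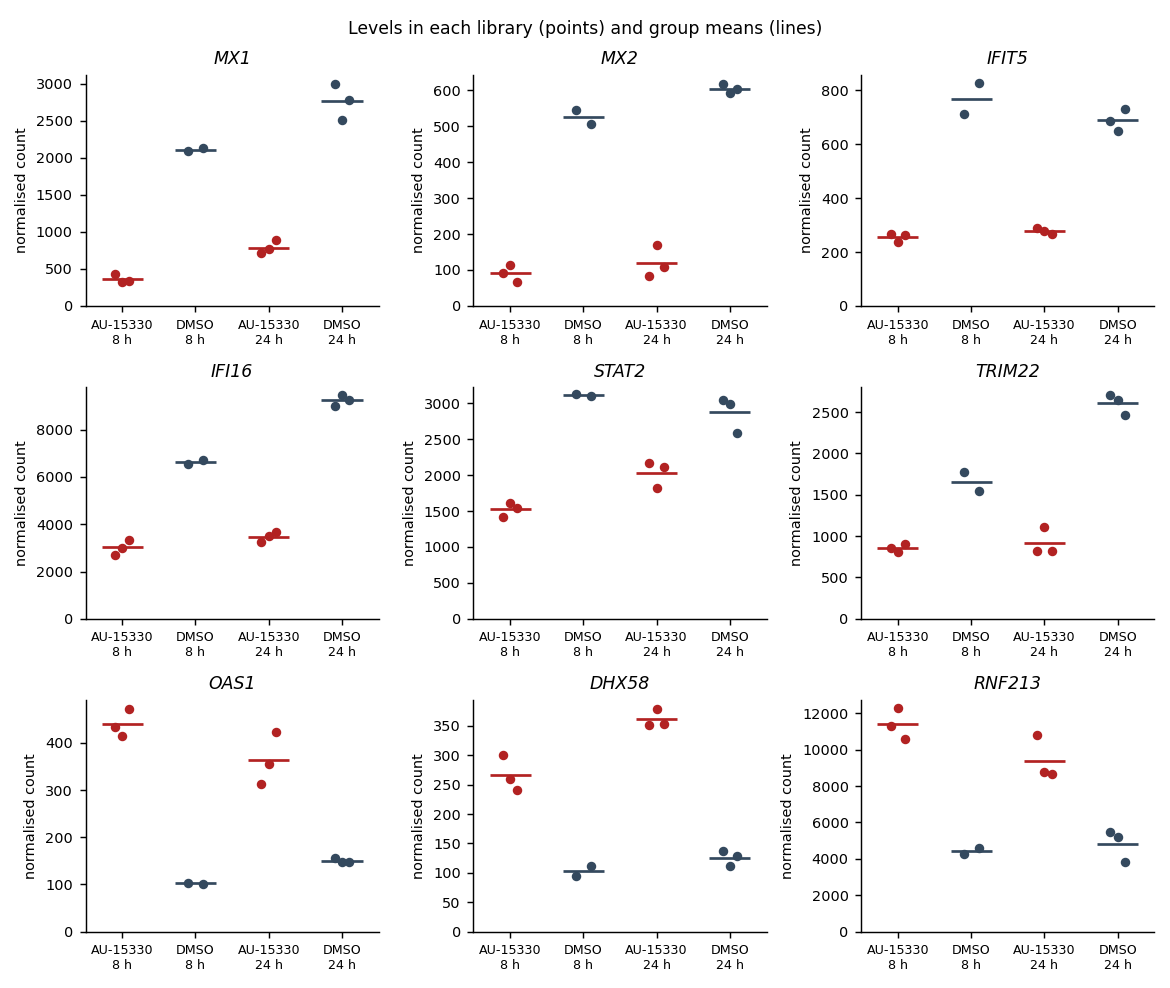
Normalised counts of 9 members in each library (points) with group means (lines), for AU-15330 and DMSO at 8 h and at 24 h; each panel has its own linear axis from 0. In the 6 falling members every AU-15330 library lies below every DMSO library of its time, and in OAS1, DHX58 and RNF213 every AU-15330 library lies above.

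The 6 members of the RNA sensing and OAS group above background held 2 higher, 2 lower and 2 not past the test at each time. Of all entries tested, 21.4% were lower and 22.9% higher at 8 h, and 26.2% lower and 24.7% higher at 24 h. With 6 members, 2 in a direction are near those shares, which also stand beside the counts of the other roles. The 2 sensors of the RIG-I family in the list moved in opposite directions. DDX58, the gene of RIG-I itself and outside the list, was lower at both times. The DDX58 change was -0.62 ± 0.13 (SE, adjusted p = 0.00295, limma) at 8 h and -1.09 ± 0.12 (SE, adjusted p = 1.01e-05, limma) at 24 h. IFIH1, which encodes MDA5, averaged 934 ± 11.8 normalised counts in AU-15330 cells and 1524 ± 16.1 in DMSO cells (SD, n = 3 and 2) at 8 h. At 24 h it averaged 839.5 ± 19.9 normalised counts in AU-15330 cells and 1530 ± 16.6 in DMSO cells (SD, n = 3 each). Its change was -0.67 ± 0.057 (SE, adjusted p = 2.5e-06, limma) at 8 h and -0.82 ± 0.051 (SE, adjusted p = 1.29e-07, limma) at 24 h. DHX58, which encodes LGP2, a relative of MDA5 without a signalling domain, lies at chr17:42101404-42112733 on the minus strand. DHX58 had 301, 259.7 and 240.2 normalised counts in AU-15330 cells at 8 h, against 95.2 and 112 in DMSO cells. At 24 h DHX58 had 352, 379 and 354 normalised counts in AU-15330 cells, against 137.8, 111 and 128 in DMSO cells. All AU-15330 libraries were above all DMSO libraries. The DHX58 change was 1.00 ± 0.11 (SE, adjusted p = 5.12e-05, limma) at 8 h and 1.19 ± 0.10 (SE, adjusted p = 2.06e-06, limma) at 24 h.

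OAS1 makes oligoadenylates that activate RNase L, and it showed the largest rise of the 29 at 8 h. OAS1 had 434.5, 414 and 472 normalised counts in AU-15330 cells at 8 h, against 103 and 102 in DMSO cells. At 24 h OAS1 had 313, 356 and 423 normalised counts in AU-15330 cells, against 156, 148 and 148.5 in DMSO cells. Every treated library was above every DMSO library, by more at 8 h than at 24 h. The mean in AU-15330 cells was 4.3 times that in DMSO cells at 8 h and 2.41 times at 24 h. The OAS1 change was 1.62 ± 0.11 (SE, adjusted p = 1.75e-06, limma) at 8 h and 1.00 ± 0.10 (SE, adjusted p = 1.87e-05, limma) at 24 h. ADAR, the adenosine deaminase that edits duplex RNA, fell by a small amount. ADAR had 30990, 30750 and 29460 normalised counts in AU-15330 cells at 8 h, against 35110 and 34320 in DMSO cells. At 24 h ADAR had 29450, 29480 and 28950 normalised counts in AU-15330 cells, against 33730, 37760 and 34470 in DMSO cells. The ADAR groups did not overlap, and the change was -0.19 ± 0.045 (SE, adjusted p = 0.00528, limma) at 8 h and -0.27 ± 0.040 (SE, adjusted p = 0.000216, limma) at 24 h. EIF2AK2, the kinase PKR, averaged 2781 ± 306 normalised counts in AU-15330 cells and 3158 ± 41.8 in DMSO cells (SD, n = 3 and 2) at 8 h. At 24 h EIF2AK2 averaged 3666 ± 616 normalised counts in AU-15330 cells and 4201 ± 214 in DMSO cells (SD, n = 3 each). OASL, a relative of the OAS enzymes without synthetase activity, averaged 251 ± 23.2 normalised counts in AU-15330 cells and 236 ± 2.43 in DMSO cells (SD, n = 3 and 2) at 8 h. At 24 h OASL averaged 251 ± 39.4 normalised counts in AU-15330 cells and 212 ± 20.1 in DMSO cells (SD, n = 3 each). Neither passed the test at either time, with adjusted p of 0.254 and 0.123 for EIF2AK2 and 0.663 and 0.185 for OASL at 8 h and 24 h by limma. Without AU-15330 replicate 3 at 24 h, EIF2AK2 was lower at that time, with a change of -0.34 and an adjusted p of 0.00461.

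Both IFIT genes above background fell. IFIT5, whose protein binds the triphosphate ends of viral RNA, lies at chr10:89414586-89421001 on the plus strand. IFIT5 had 266, 237 and 265 normalised counts in AU-15330 cells at 8 h, against 710.3 and 829 in DMSO cells. At 24 h IFIT5 had 288, 279 and 266 normalised counts in AU-15330 cells, against 685, 648 and 732 in DMSO cells. All treated libraries were low and close together, and all DMSO libraries were high. Its change was -1.39 ± 0.094 (SE, adjusted p = 8.19e-07, limma) at 8 h and -1.15 ± 0.084 (SE, adjusted p = 8.63e-07, limma) at 24 h. IFIT3, which stabilises the binding of IFIT1 to RNA, averaged 183.5 ± 19.7 normalised counts in AU-15330 cells and 257.5 ± 13.1 in DMSO cells (SD, n = 3 and 2) at 8 h. At 24 h IFIT3 averaged 226 ± 7.12 normalised counts in AU-15330 cells and 352 ± 14.8 in DMSO cells (SD, n = 3 each). The IFIT3 change was -0.39 ± 0.096 (SE, adjusted p = 0.00934, limma) at 8 h and -0.53 ± 0.086 (SE, adjusted p = 0.000296, limma) at 24 h. Leaving out DMSO replicate 2 at 8 h ended the calls at that time of IFIT3 (adjusted p = 0.067), ISG15 (0.0665), ISG20 (0.0593) and BST2 (0.0873), and brought PARP9 past the threshold as higher (0.0154). With quantile normalization IFIT3 also lost its 8 h call, with a change of -0.21 (adjusted p = 0.105, limma), and PARP9 was called higher at 8 h, with a change of 0.32 (adjusted p = 0.0258, limma).

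Of the 7 members in ISG15 conjugation and ubiquitin ligation, 3 fell and 1 rose at 8 h, and 4 fell and 2 rose at 24 h. These were 42.9% lower and 14.3% higher at 8 h, against 21.4% and 22.9% of all entries. At 24 h they were 57.1% lower and 28.6% higher, against 26.2% and 24.7%. ISG15 is a ubiquitin-like protein that is attached to other proteins. ISG15 had 562, 521 and 454 normalised counts in AU-15330 cells at 8 h, against 656 and 795 in DMSO cells. At 24 h ISG15 had 582.5, 555 and 497 normalised counts in AU-15330 cells, against 762, 720.1 and 743 in DMSO cells. The ISG15 groups did not overlap at either time, and the change was -0.46 ± 0.11 (SE, adjusted p = 0.00482, limma) at 8 h and -0.41 ± 0.096 (SE, adjusted p = 0.00357, limma) at 24 h. UBE2L6, the conjugating enzyme that hands ISG15 on, lies at chr11:57551656-57568284 on the minus strand. UBE2L6 had 1051, 1054 and 1108 normalised counts in AU-15330 cells at 8 h, against 1873 and 1785 in DMSO cells. At 24 h UBE2L6 had 994, 1037 and 1026 normalised counts in AU-15330 cells, against 2210, 2095 and 2237 in DMSO cells. The treated libraries were lower than every DMSO library at both times. The UBE2L6 change was -0.74 ± 0.059 (SE, adjusted p = 2.27e-06, limma) at 8 h and -1.05 ± 0.053 (SE, adjusted p = 2.36e-08, limma) at 24 h. USP18, which removes ISG15 and also restrains signalling at IFNAR2, averaged 345 ± 22.8 normalised counts in AU-15330 cells and 351 ± 13.8 in DMSO cells (SD, n = 3 and 2) at 8 h. At 24 h USP18 averaged 513.5 ± 30.8 normalised counts in AU-15330 cells and 392.4 ± 7.78 in DMSO cells (SD, n = 3 each). Its change was -0.02 ± 0.086 (SE, adjusted p = 0.871, limma) at 8 h and 0.34 ± 0.077 (SE, adjusted p = 0.00264, limma) at 24 h. HERC5, the ligase that completes ISG15 conjugation, was below background at 2.94 to 16.8 normalised counts.

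RNF213, a very large ubiquitin ligase with an ATPase motor, rose at both times. RNF213 had 11300, 12290 and 10610 normalised counts in AU-15330 cells at 8 h, against 4288 and 4602 in DMSO cells. At 24 h RNF213 had 10780, 8746 and 8642 normalised counts in AU-15330 cells, against 5471, 5186 and 3812 in DMSO cells. The lowest AU-15330 library was above the highest DMSO library at both times, and the change was 1.35 ± 0.14 (SE, adjusted p = 1.38e-05, limma) at 8 h and 0.96 ± 0.12 (SE, adjusted p = 5.67e-05, limma) at 24 h. DTX3L and PARP9 form a complex that joins a ubiquitin ligase to an ADP-ribosyltransferase, and only DTX3L passed the test. The DTX3L change was -0.59 ± 0.095 (SE, adjusted p = 0.000397, limma) at 8 h and -0.69 ± 0.085 (SE, adjusted p = 2.5e-05, limma) at 24 h, while PARP9 had a difference of 0.25 (adjusted p = 0.0731, limma) at 8 h and of -0.08 (adjusted p = 0.489, limma) at 24 h. PARP14, which adds single ADP-ribose units to proteins, averaged 692 ± 41.8 normalised counts in AU-15330 cells and 1220 ± 168 in DMSO cells (SD, n = 3 each) at 24 h, where its change was -0.76 ± 0.11 (SE, adjusted p = 0.000119, limma). At 8 h its change was -0.17 ± 0.12 (SE, adjusted p = 0.315, limma).

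Among the 4 members that degrade nucleotides or block replication, SAMD9 fell at both times. SAMD9 changed by -0.59 ± 0.051 (SE, adjusted p = 6.09e-06, limma) at 8 h and by -0.39 ± 0.046 (SE, adjusted p = 2.51e-05, limma) at 24 h. Its paralog SAMD9L, which like SAMD9 holds back translation, did not pass the test at 8 h, where the change was 0.43 ± 0.16 (SE, adjusted p = 0.0575, limma), and was lower at 24 h, where it was -0.45 ± 0.14 (SE, adjusted p = 0.0234, limma). The 24 h call of SAMD9L was lost without DMSO replicate 1 (adjusted p = 0.0626), DMSO replicate 3 (0.087), AU-15330 replicate 2 (0.065) or AU-15330 replicate 3 (0.0722), all at 24 h. SAMD9L was called higher at 8 h without AU-15330 replicate 1 at that time (adjusted p = 0.0164), with quantile normalization (0.033), when tested on log2(normalised count + 60), the scale of the printed change (0.0494), and in 1 fit with a replicate block (0.0395). SAMHD1, the hydrolase that depletes deoxynucleotides, averaged 2607 ± 279 normalised counts in AU-15330 cells and 3406 ± 292.5 in DMSO cells (SD, n = 3 each) at 24 h. The SAMHD1 change was 0.17 ± 0.11 (SE, adjusted p = 0.21, limma) at 8 h and -0.38 ± 0.094 (SE, adjusted p = 0.00546, limma) at 24 h. ISG20, an exonuclease for RNA, fell at 8 h, with a change of -0.45 ± 0.12 (SE, adjusted p = 0.00897, limma), and did not pass at 24 h, where the value was -0.11 ± 0.11 (SE, adjusted p = 0.377, limma). RSAD2 (viperin), which makes a chain-terminating nucleotide, was below background at 1.98 to 13.4 normalised counts.

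IFI16, a nuclear sensor of foreign DNA, had a large change at both times. Its gene lies at chr1:158999968-159055155 on the plus strand. IFI16 had 2709, 2994 and 3352 normalised counts in AU-15330 cells at 8 h, against 6562 and 6715 in DMSO cells. At 24 h IFI16 had 3264, 3486 and 3665 normalised counts in AU-15330 cells, against 8997, 9453 and 9275 in DMSO cells. The AU-15330 and DMSO libraries were well apart at both times. The IFI16 change was -1.13 ± 0.076 (SE, adjusted p = 4.2e-07, limma) at 8 h and -1.40 ± 0.068 (SE, adjusted p = 9.03e-09, limma) at 24 h.

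The 4 members above background that restrict viral entry, uncoating or budding held 1 that fell and 1 that rose, near the shares over all entries. TRIM22, a ubiquitin ligase of the TRIM family, lies at chr11:5689689-5737089 on the plus strand. TRIM22 had 853, 810.2 and 906 normalised counts in AU-15330 cells at 8 h, against 1777 and 1541 in DMSO cells. At 24 h TRIM22 had 821.5, 1114 and 816.5 normalised counts in AU-15330 cells, against 2703, 2650 and 2466 in DMSO cells. No treated library reached the DMSO range, which was itself higher at 24 h. The TRIM22 change was -0.91 ± 0.12 (SE, adjusted p = 9.57e-05, limma) at 8 h and -1.46 ± 0.11 (SE, adjusted p = 2.74e-07, limma) at 24 h. BST2 (tetherin), which holds budding virions at the cell surface, averaged 2510 ± 46.8 normalised counts in AU-15330 cells and 2181 ± 52.2 in DMSO cells (SD, n = 3 and 2) at 8 h. At 24 h BST2 averaged 2663 ± 124 normalised counts in AU-15330 cells and 2278 ± 87.8 in DMSO cells (SD, n = 3 each). Its change was small, 0.20 ± 0.055 (SE, adjusted p = 0.014, limma) at 8 h and 0.22 ± 0.050 (SE, adjusted p = 0.00306, limma) at 24 h. TRIM21, a cytosolic antibody receptor, and TRIM5, which recognises retroviral capsids, passed at neither time, with changes of -0.18 and 0.14 for TRIM21 and of 0.05 and 0.13 for TRIM5 at 8 h and 24 h. The nuclear body scaffold PML changed by -0.45 ± 0.083 (SE, adjusted p = 0.000744, limma) at 8 h and by -0.45 ± 0.074 (SE, adjusted p = 0.000279, limma) at 24 h. SP100, another nuclear body protein, had a difference of 0.19 (adjusted p = 0.233, limma) at 8 h and by -0.02 (adjusted p = 0.882, limma) at 24 h.

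The 7 members that were above background in some groups only are given by their levels, with no test. Reaching the limit in some groups only already requires that some group means differ, though not in every comparison. IFITM1, which stiffens membranes against viral fusion, had 142, 133 and 119 normalised counts in AU-15330 cells, against 435 and 405.5 in DMSO cells at 8 h. At 24 h it had 55.7, 54.1 and 48.5 normalised counts in AU-15330 cells, against 539, 596 and 491 in DMSO cells. Only the AU-15330 mean of IFITM1 at 24 h was below the limit. OAS2, the larger relative of OAS1, had 9.50, 5.16 and 31.7 normalised counts in AU-15330 cells, against 57.1 and 54.5 in DMSO cells at 8 h. At 24 h OAS2 had 16.3, 33 and 20.6 normalised counts in AU-15330 cells, against 91.6, 181 and 139.8 in DMSO cells. Only the DMSO mean of OAS2 at 24 h was above the limit, so no change is read from these levels. XAF1, a binding partner of the caspase inhibitor XIAP, averaged 26.8 ± 12.9 normalised counts in AU-15330 cells and 133 ± 71.2 in DMSO cells (SD, n = 3 and 2) at 8 h. At 24 h XAF1 averaged 22.6 ± 5.13 normalised counts in AU-15330 cells and 138.5 ± 45.9 in DMSO cells (SD, n = 3 each). LGALS3BP, a secreted glycoprotein, averaged 17.6 ± 5.14 normalised counts in AU-15330 cells and 114 ± 12.4 in DMSO cells (SD, n = 3 and 2) at 8 h. At 24 h LGALS3BP averaged 9.80 ± 5.83 normalised counts in AU-15330 cells and 152 ± 24.5 in DMSO cells (SD, n = 3 each). In both genes the DMSO means alone were above the limit. EPSTI1 averaged 40.4 ± 16.9 normalised counts in AU-15330 cells and 140.3 ± 43.4 in DMSO cells (SD, n = 3 and 2) at 8 h. At 24 h EPSTI1 averaged 60.3 ± 3.95 normalised counts in AU-15330 cells and 179.7 ± 26.2 in DMSO cells (SD, n = 3 each). For 2 of the 7, IFI6, a mitochondrial and endoplasmic reticulum protein, and IFI35, the AU-15330 means were the higher ones. IFI6 averaged 87.4 ± 8.20 normalised counts in AU-15330 cells and 55.8 ± 14.3 in DMSO cells (SD, n = 3 and 2) at 8 h. At 24 h IFI6 averaged 169.6 ± 3.73 normalised counts in AU-15330 cells and 72.1 ± 12.3 in DMSO cells (SD, n = 3 each). IFI35 averaged 77.3 ± 13 normalised counts in AU-15330 cells and 47.6 ± 1.16 in DMSO cells (SD, n = 3 and 2) at 8 h. At 24 h IFI35 averaged 111 ± 9.15 normalised counts in AU-15330 cells and 61.4 ± 9.48 in DMSO cells (SD, n = 3 each).

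The 13 members below background in all groups included genes often read as markers of an interferon response. OAS3 was at 0 to 8.68 normalised counts over the libraries, IFIT1 at 6.01 to 23.4 and IFIT2 at 11.5 to 47.4. IFI27, for which the table had 2 entries, was at 3.38 to 31.9, IFI44 at 0 to 7.38 and IFI44L at 0 to 18.7. IFITM2 was at 0 to 8.09, IFITM3 at 6.60 to 53.2, HERC6 at 3.50 to 18.9 and ZBP1 at 0.576 to 23.0, beside the levels of GBP1, HERC5 and RSAD2 given above. No change is read from these levels.

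Several members lie side by side in the genome (coordinates are those of the GENCODE release 29 annotation of GRCh38). On chromosome 12, OAS1, OAS3 and OAS2 run in this order on the plus strand between 112906777 and 113011723, with gaps of 5.1 kb each. OAS1 rose, OAS3 was below background, and OAS2 was above background in DMSO cells at 24 h only. OAS3 had 0, 1.23 and 1.63 normalised counts in AU-15330 cells, against 1.02 and 3.65 in DMSO cells at 8 h. At 24 h OAS3 had 5.91, 7.62 and 3.37 normalised counts in AU-15330 cells, against 4.15, 8.68 and 0 in DMSO cells. On chromosome 21, MX2 and MX1 lie 10.9 kb apart and both fell. On chromosome 10, IFIT2, IFIT3, IFIT1 and IFIT5 form 1 row on the plus strand, in which IFIT3 and IFIT5 fell and the other 2 were below background. On chromosome 7, SAMD9 and SAMD9L are 12.0 kb apart. On chromosome 3, PARP9 and DTX3L overlap head to head by 0.3 kb on opposite strands, and on chromosome 11 the annotated span of TRIM5 covers TRIM22 on the other strand. IFITM2 and IFITM1 also overlap on chromosome 11. The sources used here do not state whether counting used the strand, and reads from overlapping genes and close paralogs such as these may be shared, so levels of these pairs are uncertain.

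**Figure D3:**
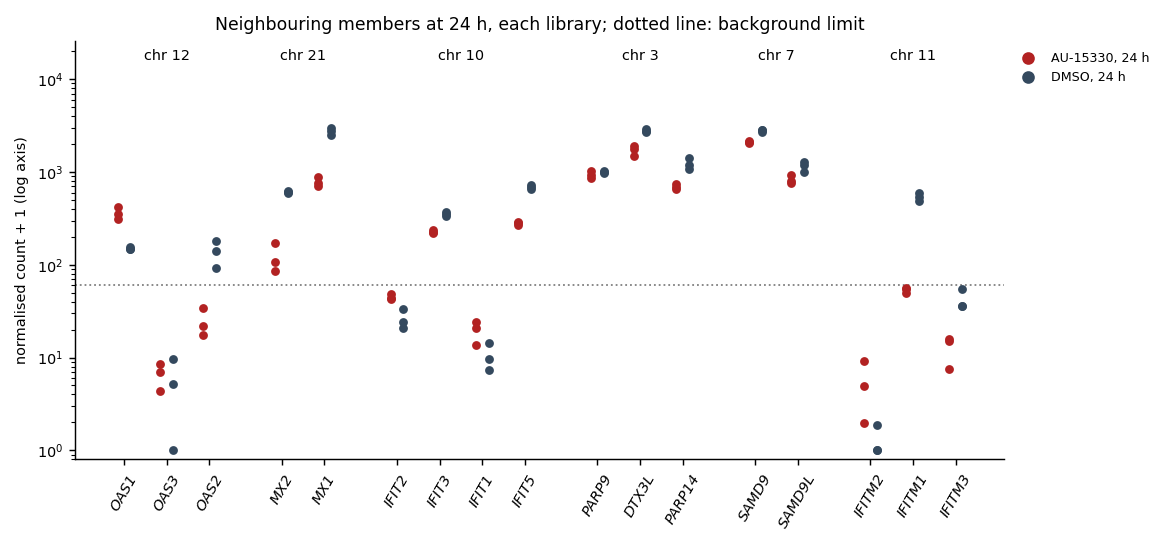
Normalised counts + 1 (log axis) of members that lie next to each other, by chromosome and in genome order, in each AU-15330 library and each DMSO library at 24 h; the dotted line marks the background limit of 60 normalised counts. OAS1 is higher in AU-15330 libraries, OAS2 passes the limit in DMSO libraries only, and MX2 and MX1 are both lower.

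The effect of AU-15330 differed between the times for 9 of the 29 members by a test of the difference itself, the change at 24 h minus the change at 8 h. It was more positive at 24 h for 2 members (6.90%), STAT2 and USP18, against 7.54% of all entries. It was more negative for 7 members (24.1%), OAS1, IFI16, TRIM22, SAMHD1, PARP14, UBE2L6 and SAMD9L, against 11.0% of all entries. The difference was 0.52 ± 0.12 (SE, adjusted p = 0.0151, limma) for STAT2, whose fall was smaller at 24 h. For OAS1, whose rise was smaller at 24 h, it was -0.62 ± 0.15 (SE, adjusted p = 0.0277, limma). The TRIM22 difference was -0.55 ± 0.16 (SE, adjusted p = 0.0126, limma). TRIM22 averaged 856 and 917.5 normalised counts in AU-15330 cells at 8 h and 24 h, against 1659 and 2606 in DMSO cells. Of the 7 members with a more negative difference, all but OAS1 were called higher in DMSO cells at 24 h than at 8 h. Those DMSO levels enter the difference, and time and batch cannot be told apart in them. The difference for SAMD9L was -0.88 ± 0.22 (SE, adjusted p = 0.0196, limma). MX1 had a difference of 0.64 on the log2(normalised count + 60) scale but an adjusted p of 0.217 by limma on the deposited scale, and it passed when CPM values or log2(normalised count + 60) were tested instead, with an adjusted p as low as 0.0146. Without DMSO replicate 1 at 8 h, 3 members passed, each with a more negative difference, and without DMSO replicate 2 at 8 h 1 member passed in each direction. The split of all entries that differed also moved with scaling, with 59.3% of them lower in the fit reported and 41.1% lower on log2(CPM + 1).

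**Figure D4:**
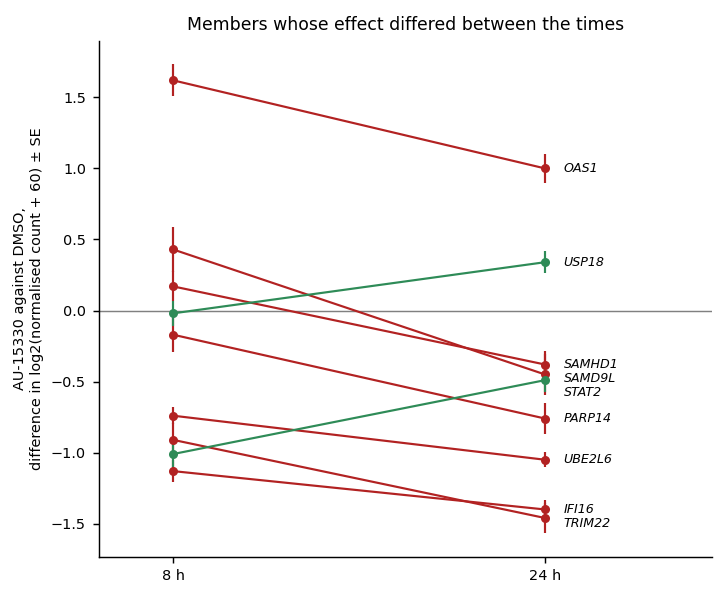
Change with AU-15330 against DMSO at 8 h and at 24 h, as the difference in log2(normalised count + 60) with its standard error, for the 9 members whose change differed between the times. Green lines mark the 2 members with a more positive change at 24 h (STAT2 and USP18), and red lines the 7 with a more negative one.

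In DMSO cells alone, 11 of the 29 members were higher at 24 h than at 8 h (37.9%) and 0 were lower, against 6.56% of all entries higher and 3.56% lower by limma. At an unadjusted p under 0.05, 0 members were lower. Time and batch cannot be told apart in this comparison. The 11 were MX1, IFIT3, IFI16, TRIM22, SAMHD1, PARP9, PARP14, DTX3L, UBE2L6, SAMD9 and SAMD9L, and 7 of them are among the falling members. TRIM22 had the largest difference, 0.64 ± 0.12 (SE, adjusted p = 0.00227, limma), and IFI16 had 0.47 ± 0.076 (SE, adjusted p = 0.00101, limma). The median over the 29 was 0.18. The number called ranged from 3 to 12 over fits that left out 1 library, with 3 without DMSO replicate 1 at 8 h, DMSO replicate 2 at 8 h or DMSO replicate 1 at 24 h. Of all entries called, 35.2% were lower in the fit reported and 49.8% on log2(CPM + 1).

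Genes that make, receive or pass on the interferon signal were read from lists outside the 51. Of 10 interferon genes searched, the table held IFNW1 alone, at 0 to 4.87 normalised counts. Counts of these lists stand beside shares over all entries of 21.4% lower and 22.9% higher at 8 h, and of 26.2% lower and 24.7% higher at 24 h. With lists this short, 1 or 2 genes in a direction are near those shares. Of 6 receptor chains, 4 fell and 1 rose at each time. IFNAR2, a chain of the type I receptor, averaged 2097 ± 4.31 normalised counts in AU-15330 cells and 3761 ± 333 in DMSO cells (SD, n = 3 and 2) at 8 h. At 24 h IFNAR2 averaged 1948 ± 181 normalised counts in AU-15330 cells and 4178 ± 389 in DMSO cells (SD, n = 3 each), with changes of -0.82 ± 0.089 (SE, adjusted p = 2.81e-05, limma) at 8 h and -1.08 ± 0.079 (SE, adjusted p = 7.95e-07, limma) at 24 h. Its partner IFNAR1 changed by -0.27 ± 0.059 (SE, adjusted p = 0.00328, limma) at 8 h and by -0.28 ± 0.053 (SE, adjusted p = 0.000936, limma) at 24 h. IFNLR1, a chain of the interferon lambda receptor, changed by 0.37 ± 0.043 (SE, adjusted p = 5.58e-05, limma) at 8 h and by 1.03 ± 0.038 (SE, adjusted p = 2.05e-09, limma) at 24 h.

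Of the 3 kinases listed, JAK1 fell and JAK2 rose at both times. JAK1 averaged 6610 ± 257 normalised counts in AU-15330 cells and 9886 ± 731 in DMSO cells (SD, n = 3 and 2) at 8 h. At 24 h JAK1 averaged 6514 ± 422 normalised counts in AU-15330 cells and 10640 ± 191 in DMSO cells (SD, n = 3 each), and its change was -0.58 ± 0.060 (SE, adjusted p = 1.77e-05, limma) at 8 h and -0.70 ± 0.054 (SE, adjusted p = 8.14e-07, limma) at 24 h. IRF9, the partner of STAT2, rose where STAT2 fell. IRF9 averaged 220.5 ± 24.9 normalised counts in AU-15330 cells and 122 ± 27.5 in DMSO cells (SD, n = 3 and 2) at 8 h. At 24 h IRF9 averaged 222 ± 13.2 normalised counts in AU-15330 cells and 120.1 ± 20.4 in DMSO cells (SD, n = 3 each), and its change was 0.63 ± 0.13 (SE, adjusted p = 0.00285, limma) at 8 h and 0.65 ± 0.12 (SE, adjusted p = 0.000893, limma) at 24 h. The table held 2 entries for IRF9.

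The 8 STAT and IRF genes outside the list held 3 that fell and 2 that rose at 8 h, and 4 that fell and 1 that rose at 24 h. IRF1, an activator at response elements that needs no STAT partner, fell the most with IRF8. IRF1 had 1170, 1285 and 1309 normalised counts in AU-15330 cells at 8 h, against 4140 and 4123 in DMSO cells. At 24 h IRF1 had 1034, 1152 and 1150 normalised counts in AU-15330 cells, against 4074, 4096 and 4188 in DMSO cells. The DMSO libraries were alike at both times, and all treated libraries were below them. The IRF1 change was -1.67 ± 0.064 (SE, adjusted p = 4.79e-09, limma) at 8 h and -1.84 ± 0.057 (SE, adjusted p = 3.75e-10, limma) at 24 h. IRF8, which binds composite elements in B cells together with PU.1, averaged 229.7 ± 59.6 normalised counts in AU-15330 cells and 938 ± 16.1 in DMSO cells (SD, n = 3 and 2) at 8 h. At 24 h IRF8 averaged 232 ± 18.2 normalised counts in AU-15330 cells and 1110 ± 164 in DMSO cells (SD, n = 3 each). The IRF8 change was -1.81 ± 0.17 (SE, adjusted p = 5.94e-06, limma) at 8 h and -2.00 ± 0.15 (SE, adjusted p = 4.33e-07, limma) at 24 h. IRF7, the factor that amplifies type I interferon production, changed by -0.65 ± 0.10 (SE, adjusted p = 0.000233, limma) at 8 h and by -1.03 ± 0.091 (SE, adjusted p = 2.79e-06, limma) at 24 h, and the table held 2 entries for it.

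**Figure D5:**
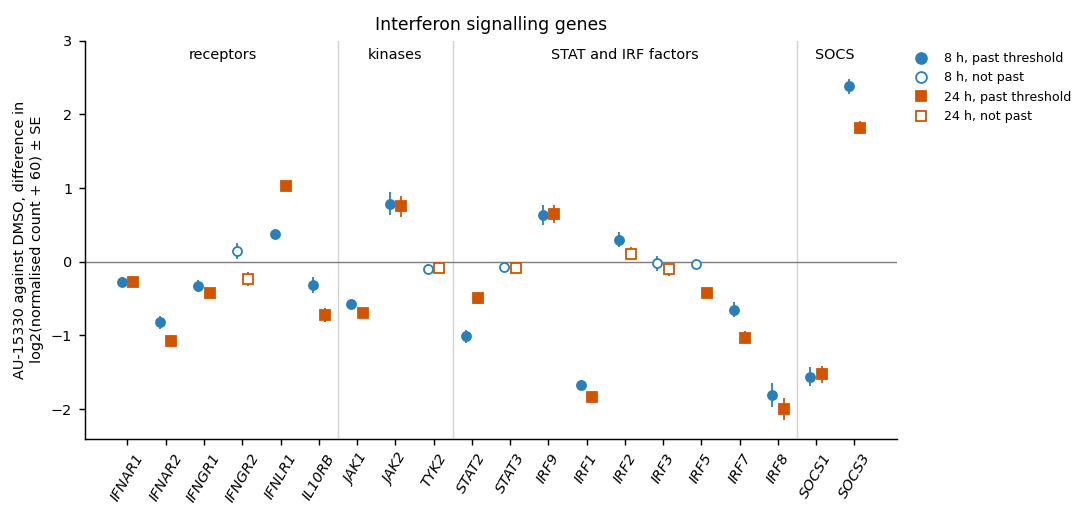
Change with AU-15330 against DMSO in log2(normalised count + 60) with its standard error, at 8 h (circles) and 24 h (squares), for interferon receptor chains, kinases, STAT and IRF factors and SOCS genes; filled symbols passed an adjusted p of 0.05. STAT2 lies below 0 and IRF9 above it, and SOCS1 and SOCS3 lie on opposite sides.

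Among 6 genes of negative feedback, 3 fell and 1 rose at each time. SOCS1 and SOCS3, which both block JAK kinases, went in opposite directions. SOCS1 averaged 284 ± 36.0 normalised counts in AU-15330 cells and 957 ± 201 in DMSO cells (SD, n = 3 and 2) at 8 h. At 24 h SOCS1 averaged 213 ± 19.6 normalised counts in AU-15330 cells and 725 ± 36.7 in DMSO cells (SD, n = 3 each). SOCS3 averaged 2384 ± 36.6 normalised counts in AU-15330 cells and 413 ± 94.0 in DMSO cells (SD, n = 3 and 2) at 8 h. At 24 h SOCS3 averaged 1313 ± 28.1 normalised counts in AU-15330 cells and 329.5 ± 13.8 in DMSO cells (SD, n = 3 each). The change was -1.56 ± 0.13 (SE, adjusted p = 4.02e-06, limma) at 8 h and -1.53 ± 0.12 (SE, adjusted p = 2.36e-06, limma) at 24 h for SOCS1. For SOCS3 it was 2.38 ± 0.10 (SE, adjusted p = 4.79e-09, limma) at 8 h and 1.82 ± 0.091 (SE, adjusted p = 1.59e-08, limma) at 24 h. PTPN6 (SHP-1), a phosphatase that acts on JAK kinases, averaged 714 ± 76.9 normalised counts in AU-15330 cells and 4674 ± 106 in DMSO cells (SD, n = 3 each) at 24 h, where its change was -2.62 ± 0.082 (SE, adjusted p = 2.15e-10, limma). At 8 h PTPN6 averaged 899.5 ± 89.0 normalised counts in AU-15330 cells and 1242 ± 14.2 in DMSO cells (SD, n = 3 and 2), and the change was -0.44 ± 0.092 (SE, adjusted p = 0.00206, limma). In DMSO cells PTPN6 was higher at 24 h than at 8 h, by 1.86 ± 0.092 (SE, adjusted p = 1.65e-07, limma). Of 14 symbols of sensors and adaptors listed, 11 had a row, since RIGI, MB21D1 and TMEM173 are other names of DDX58, CGAS and STING1. TLR3 was below background, and the other 10 were tested. Of these 10, 8 fell and 1 rose at each time, the riser being TBK1 at 8 h and CGAS at 24 h. The 8 include TLR9, which was above the limit in DMSO cells only and so had to differ. The median change of the 10 tested, TLR9 included, was -0.66 at 8 h and -1.15 at 24 h, against 0.02 and 0.01 for all entries. STING1, the adaptor of DNA sensing, changed by -1.08 at 8 h and -1.33 at 24 h, and TRIM25, a ubiquitin ligase in RIG-I signalling, by -1.09 and -1.21. For STING1 too the table held 2 entries.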

How the data were processed

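The labels give polyA RNA from Z138 cells and 2 library kits, TruSeq RNA v2 and TruSeq Stranded Total RNA, without saying which sample had which. The submitters' processing notes name the build GRCh38.p13 and, with no roles or parameters, DESeq2 (1.24.0), kallisto (0.46.1), Trimmomatic (0.40) and R (4.3.2). The authors deposited 1 table of log2 values per gene and library. These ran from 10.36, the shared floor, to 20.15, the form of a variance-stabilised scale and not of log CPM, and were converted back to normalised counts, of which 59.4 equal 1 CPM. On the deposited scale a doubling is 0.163 at 100 normalised counts and 0.461 at 1000, so changes are given in log2(normalised count + 60). Of values up to 20 counts, 53.9% to 56.4% per library lay within 0.02 of a whole number, so no count model was used, and no counting intervals are given.

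Tests covered the 12722 entries that reached 1 CPM in 3 or more libraries. limma 3.58.1 under R 4.3.3 fitted 1 mean per group over 11 libraries, with a mean trend in the prior, 7 residual degrees of freedom and Benjamini-Hochberg adjustment. Of 12 columns, 1 was a copy and was not used. Of 20318 entries, 1600 had no symbol. Positions are from GENCODE release 29, and promoters from RefSeq (GRCh38.p14). The fit was tested on simulated data. Values in every library are given for members above background that passed with a change of at least 1 at that time, and for STAT2, ISG15, ADAR, OAS1, OAS2 and OAS3. From the lists of receptors, kinases, STAT and IRF genes, those that passed with such a change are named, plus IRF9, IFNAR1, IFNAR2 and JAK1. IFITM1 values by library, the SOCS genes, PTPN6, JAK2 and the sensors were picked with their values known. The members, their roles and the related lists were chosen with earlier results of these data known. Some genes are not reported here. The alternatives varied normalization, scale, filter, samples in the fit, variance prior, a replicate block, the entry kept for a repeated symbol, and left out each library in turn.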

Additional observations from a re-analysis of the deposited data

Results flagged for a closer look

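The change with AU-15330 differed between 24 h and 8 h, by limma's test of the difference, for 9 members above background, and each is given as the change at 24 h minus the change at 8 h in log2(normalised count + 60). The difference was 0.52 for STAT2 and 0.36 for USP18. It was -0.27 for IFI16, -0.31 for UBE2L6, -0.55 for TRIM22, -0.55 for SAMHD1, -0.60 for PARP14, -0.62 for OAS1 and -0.88 for SAMD9L. For SAMD9L and SAMHD1 the change was above 0 at 8 h and below 0 at 24 h, though neither passed the test at 8 h. Each of the 9 lost its call in at least 1 fit that left out a library, and USP18 did so in 14 of 24 alternatives. Groups had 3 libraries or fewer, so single outlying libraries were not searched for.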

How the results depend on the processing

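Over the 24 alternatives, no called change of a member reversed its direction. Of the 19 members above background called at 8 h, 15 kept their call in every alternative, and of the 22 called at 24 h, 21 did. The counts at 8 h and 24 h stayed within 1.5 times those reported. The difference between the times was less stable: the number with a more positive difference, 2 as reported, was 1 with quantile normalization or no filter, 4 on log2(CPM + 1) and 4 on log2(CPM + 5), and 0 to 2 with 1 library left out, and the number with a more negative difference, 7 as reported, was 1 to 7 with 1 library left out. Members called higher in DMSO cells at 24 h than at 8 h, 11 as reported, numbered 7 on log2(CPM + 1), 6 with no filter, 7 in a fit of those groups alone and 3 to 12 with 1 library left out. The cause was not tested. No scaling moved the median of all entries by over 0.1.

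Deviations from group means in same-numbered libraries had correlations of -0.035 to 0.045, which cannot settle whether replicate numbers pair the samples. With 2 DMSO libraries at 8 h, the values of each AU-15330 library with them are forced to be equal and opposite. At 24 h each library correlated best with its own number, a hint from the data and not the design. With the replicate block, 1 member had a more positive difference between the times, also when the shared DMSO column was taken as replicate 3 (a choice made after seeing the data), and 7 members were higher in DMSO cells at 24 h. For AU-15330 against DMSO above background the block changed no call, except that SAMD9L was called higher at 8 h under that second pairing (adjusted p = 0.0395, limma). With 2 DMSO libraries at 8 h, tests that use this group rest on a small number of samples.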
